A study of Mus musculus with 5 samples.

Results

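The LIM homeobox genes encode transcription factors that carry a pair of zinc-binding LIM domains, which bind other proteins, and a homeodomain, which binds DNA. The 10 genes described here, Lhx1, Lhx2, Lhx3, Lhx4, Lhx5, Lhx6, Lhx8, Lhx9, Isl1 and Isl2, were chosen by name, as members of this gene family, from the 22350 protein-coding genes of the mouse mm9 annotation. H3K27me3, histone H3 trimethylated at lysine 27 by Polycomb Repressive Complex 2 (PRC2), was profiled by ChIP-Seq in mouse embryonic fibroblasts (MEFs), and the peak lists of 3 libraries were analysed here. The cells of all 3 groups came from a midgestation embryo with loxP sites in Eed, a gene for a PRC2 subunit, and were transduced with lentivirus that stably expressed, from the EF1a promoter, H3.3 K27R, H3.3 K27M or human EZHIP. Transduced cells were selected with puromycin. Each group was 1 library, so that no spread between replicates exists and no comparison carries a test. The control library and the Eed deletion line, a single clone, were not analysed here.

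EZHIP is a protein found in PFA ependymoma that binds PRC2 and inhibits it. The oncohistone H3.3 K27M, known from diffuse midline glioma, carries methionine where PRC2 would methylate lysine, and it too inhibits PRC2. H3.3 K27R has arginine at the same position and does not inhibit the enzyme in this way, so its list served as the reference. In the embryo, LIM homeobox genes set the identity of motor neurons, interneurons, pituitary cells, the kidney and limb primordia, and in cells that do not use them they are typical targets of PRC2, which spreads H3K27me3 outward from CpG islands. CpG islands are stretches of DNA rich in the dinucleotide CG.

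Each list gave the start and end of every peak with no height and no read count, so depth is unknown and a gene was only inside or outside a peak. The K27R, K27M and EZHIP lists held 12845, 3736 and 4992 peaks, which covered 582, 51.0 and 36.5 Mb. The lists differed in the gaps left between neighbouring peaks. The smallest gap between neighbours was 5.2 kb in K27M and 1.2 kb in EZHIP, and 28.4% of the EZHIP gaps but 12.4% of the K27M gaps were under 10 kb. The K27R list held neighbours that touched, and 10.2% of its gaps were under 10 kb. Widths of single peaks depend on how neighbours were joined. Values after joining all peaks up to 10 kb apart are given for some comparisons of width and cover. The others are for peaks as listed. Among these are the widths of Pax, Nkx and LIM partner genes and of the genes most alike in width. Of the 12 fibroblast markers, among them Col1a1, Col1a2, Vim and Fn1, 1 (Pdgfra) had its start site in a peak, in all 3 lists. Of the 7 markers of other cell types that could be matched, 3 (Epcam, Cdh1 and Cdh5) did so in K27R, and 1 (Epcam) in K27M and in EZHIP. Of all protein-coding genes 30.1%, 9.02% and 7.73% had a start site in a K27R, K27M and EZHIP peak. Beside these shares, marker counts this small say little about the identity of the cells.

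Of 5 pairs of close relatives among the 10 genes, 3 pairs held a gene that lacked a peak where its partner had one: Lhx2 and Lhx9, Lhx6 and Lhx8, and Isl1 and Isl2. The 250 bases before the start of the 5′-most protein-coding transcript are shown for these 6 genes so that the sequence can be read beside the peaks. They were read from the mm9 genome on the strand of transcription, 5′ to 3′, with every CG in capitals. The windows lie at chr2:38194551-38194800 on the plus strand for Lhx2, chr1:140745154-140745403 on the minus strand for Lhx9, chr2:35960929-35961178 on the minus strand for Lhx6, chr3:153993616-153993865 on the minus strand for Lhx8, chr13:117099897-117100146 on the minus strand for Isl1 and chr9:55388705-55388954 on the plus strand for Isl2.
Lhx2: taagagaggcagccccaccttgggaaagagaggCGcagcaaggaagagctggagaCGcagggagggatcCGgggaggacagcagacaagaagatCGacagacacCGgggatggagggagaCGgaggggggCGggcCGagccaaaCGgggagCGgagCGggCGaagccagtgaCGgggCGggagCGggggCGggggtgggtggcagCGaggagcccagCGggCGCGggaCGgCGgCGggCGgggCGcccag
Lhx9: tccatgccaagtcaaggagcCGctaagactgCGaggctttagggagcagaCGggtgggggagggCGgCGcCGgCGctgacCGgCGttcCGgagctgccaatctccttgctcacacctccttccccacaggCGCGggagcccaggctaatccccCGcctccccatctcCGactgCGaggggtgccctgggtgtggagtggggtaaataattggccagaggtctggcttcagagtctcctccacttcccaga
Lhx6: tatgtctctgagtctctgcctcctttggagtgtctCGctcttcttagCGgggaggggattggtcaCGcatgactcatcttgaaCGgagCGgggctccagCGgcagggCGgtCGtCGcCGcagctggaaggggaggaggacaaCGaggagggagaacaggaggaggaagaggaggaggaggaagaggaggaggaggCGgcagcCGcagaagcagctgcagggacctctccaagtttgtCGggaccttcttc
Lhx8: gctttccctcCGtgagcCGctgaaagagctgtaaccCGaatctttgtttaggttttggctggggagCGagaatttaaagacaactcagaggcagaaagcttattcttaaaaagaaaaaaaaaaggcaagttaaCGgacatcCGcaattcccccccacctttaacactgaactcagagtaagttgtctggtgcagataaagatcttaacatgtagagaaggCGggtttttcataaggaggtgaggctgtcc
Isl1: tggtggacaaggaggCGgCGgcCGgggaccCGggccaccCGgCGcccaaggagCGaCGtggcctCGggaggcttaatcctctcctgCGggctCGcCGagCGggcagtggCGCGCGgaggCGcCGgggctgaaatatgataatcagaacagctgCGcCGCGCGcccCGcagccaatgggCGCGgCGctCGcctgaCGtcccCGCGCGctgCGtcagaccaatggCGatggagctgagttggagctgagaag
Isl2: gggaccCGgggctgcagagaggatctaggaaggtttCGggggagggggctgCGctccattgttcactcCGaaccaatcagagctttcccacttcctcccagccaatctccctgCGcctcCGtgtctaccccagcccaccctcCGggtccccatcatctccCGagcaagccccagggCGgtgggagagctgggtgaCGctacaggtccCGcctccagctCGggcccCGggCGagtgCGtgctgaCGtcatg

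The Isl1 window held 33 CG, and 4.55% of all promoter windows of this length held at least as many. Lhx2 followed with 25 (12.2% of all windows) and Isl2 with 16 (31.1%). Lhx9 held 15 (33.5%), Lhx6 held 14 (36.2%) and Lhx8 held 7 (56.3%). The order of the CG counts was not the order of the peaks, since Lhx8 had the fewest CG of all 10 windows and kept a peak in every list, while Lhx9 had more and lay in no peak. Of the remaining genes, Lhx1 held 23, Lhx5 16, Lhx4 14 and Lhx3 11. The median was 15.5 over the 10 genes against 9.0 over all promoter windows and 6 over genes with a start site in a K27R peak.

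H3K27me3 lay over nearly the whole group in the reference cells and over most of it in both other lists. With the start site taken as the 5′ end of the gene, 9 of the 10 start sites lay in a K27R peak, where 30.1% of all protein-coding genes did. In the K27M list 8 of 10 did so (9.02% of all genes), and in the EZHIP list 7 of 10 (7.73% of all genes). Of the 9 genes marked in K27R, 8 were thus still marked at the start site in K27M and 7 in EZHIP, where 29.9% and 25.6% of all genes marked in K27R were. Gene bodies overlapped peaks for 9, 9 and 7 of the 10 genes, where 36.1%, 11.5% and 10.6% of all gene bodies did. Of the 9 bodies that overlapped K27M peaks, 7 overlapped EZHIP peaks, close to the 75.2% seen over all genes. The difference between the K27M counts of 8 and 9 is Isl2, which is described with its relative Isl1.

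**Figure D1:**
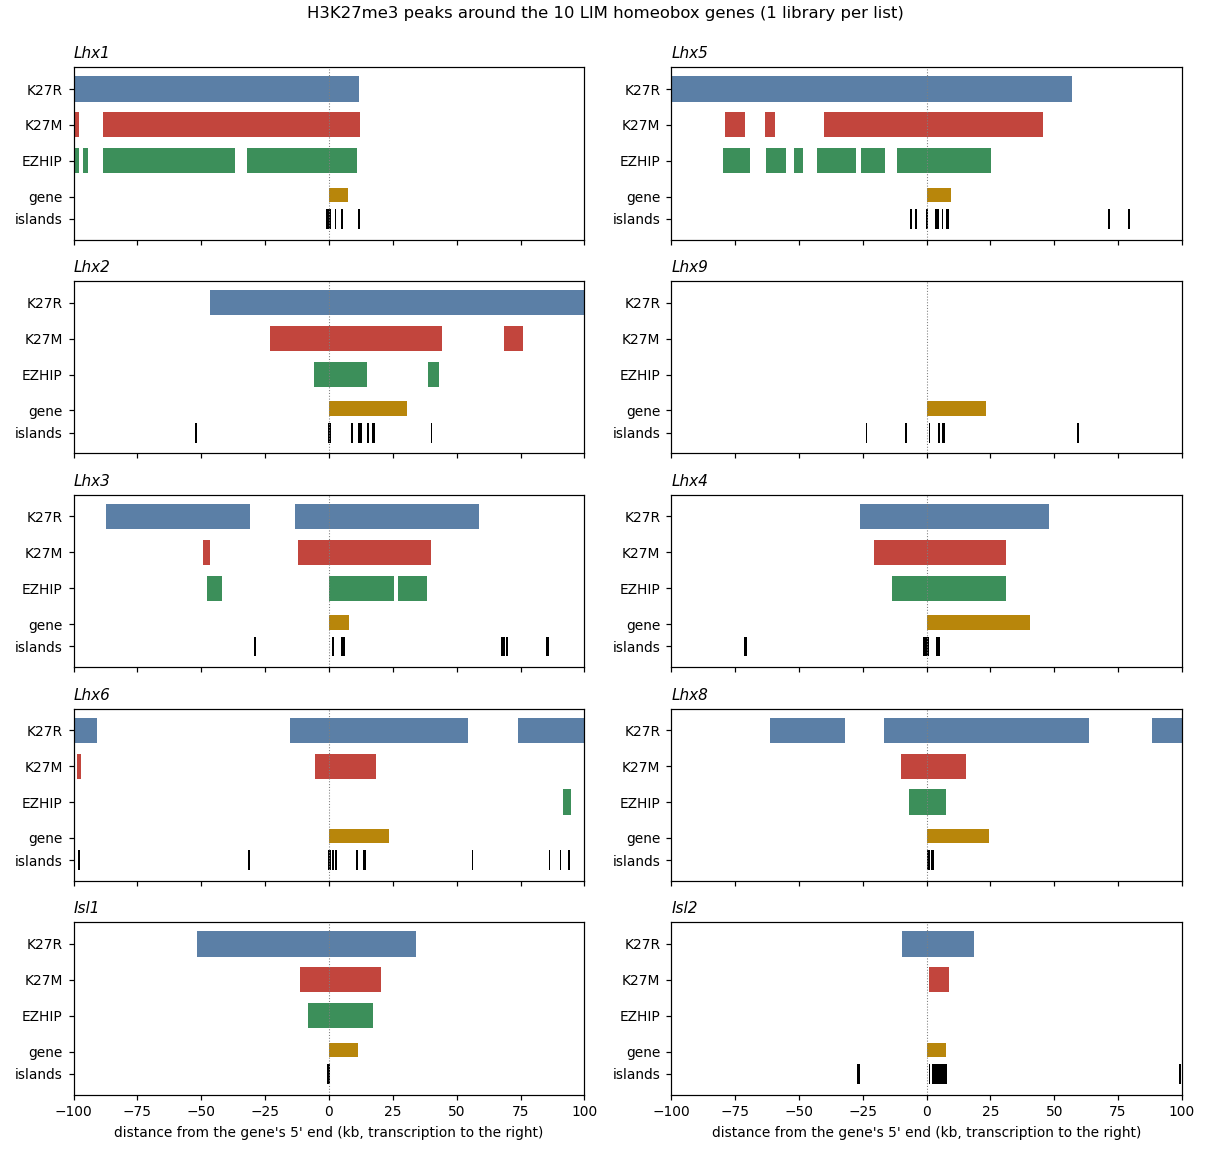
H3K27me3 peaks within 100 kb of the 5′ end of each of the 10 LIM homeobox genes, drawn by distance in kb with transcription to the right. Blue, red and green bars are peaks of the K27R, K27M and EZHIP lists (1 library each), the ochre bar is the gene and black marks are CpG islands; bars that touch the frame run on. Lhx9 has no peak bar, and over Lhx6 and Isl2 there are K27R and K27M bars but no EZHIP bar, the only EZHIP bar near Lhx6 lying 91.5 kb downstream.

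The length covered by peaks within 50 kb on either side of the start site had a median over the 10 genes of 78.1, 41.7 and 25.3 kb in the K27R, K27M and EZHIP lists. Over all genes the medians were 14.8, 0 and 0 kb, and over the 6735 genes with a start site in a K27R peak they were 71.6, 1.47 and 1.2 kb. The 9 marked LIM homeobox genes had medians of 82.2, 51.6 and 25.6 kb. In K27R they thus resembled other marked genes, and in both other lists their cover was longer. The median share of the gene body under peaks was 100%, 92.5% and 62.9% over the 10 genes.

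**Figure D2:**
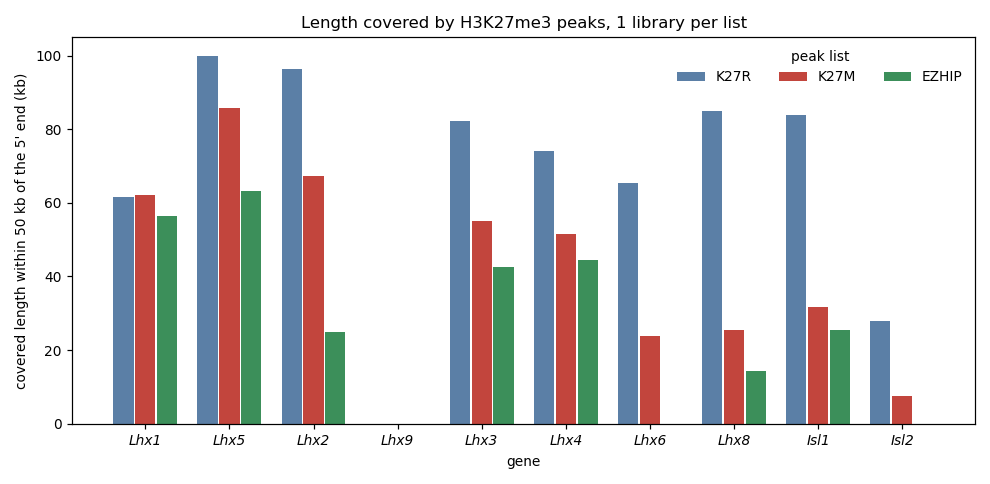
Length in kb covered by H3K27me3 peaks within 50 kb of the 5′ end, for each gene in the K27R, K27M and EZHIP lists (1 library each, no error bars). Lhx5 was highest in each list with 100, 85.8 and 63.1 kb, and Lhx9 was at 0 in all 3.

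Lhx1, needed in the head organizer and the kidney, and its close relative Lhx5, which acts in the developing brain, lay in the widest K27R and K27M peaks of the group. Lhx1 (chr11:84331479-84338923, minus strand) lay in a K27R peak of 299.0 kb, a K27M peak of 100.4 kb and an EZHIP peak of 43.4 kb, and each covered its whole body. Lhx5 (chr5:120881895-120891466, plus strand) lay in peaks of 351.6, 85.8 and 36.6 kb, again over the whole body. Within 50 kb of the start site, peaks covered 61.7, 62.1 and 56.5 kb for Lhx1 in K27R, K27M and EZHIP. The same lengths were 100, 85.8 and 63.1 kb for Lhx5. Lhx1 was thus nearly level across the lists in this window, and Lhx5 fell at each step. Upstream of both genes EZHIP cover was split into many peaks. After joining at 10 kb, the EZHIP peak over Lhx5 was 104.8 kb, wider than the K27M peak of 85.8 kb, and those over Lhx1 were 141.6 and 146.8 kb.

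The K27R region of Lhx1 held 5 CpG islands and no other protein-coding start. Its length was covered to 65.8% by 5 K27M peaks and to 70.0% by 14 EZHIP peaks, the only one of the 9 regions with more EZHIP than K27M cover. For Lhx5, whose region held 8 islands, 7 K27M peaks covered 52.4% and 13 EZHIP peaks 41.7%. That region held the start sites of Sds and Sdsl, genes of serine and threonine breakdown in liver, 44.6 and 40.9 kb from the Lhx5 start. Both of these start sites lay in a K27M peak and neither lay in an EZHIP peak.

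Lhx2 and Lhx9, which act in limb, forebrain and gonad, differed most as a pair. Lhx2 (chr2:38194801-38225253, plus strand) lay in peaks of 149.6, 67.4 and 20.6 kb in K27R, K27M and EZHIP. The K27M peak covered the whole gene, while the EZHIP peak ended 14.8 kb downstream of the start site and covered 48.6% of the gene and 2 of its 5 exons. Cover within 50 kb was 96.4, 67.4 and 25 kb. Of 6 islands in its K27R region, all 6 overlapped K27M peaks and 4 overlapped EZHIP peaks. The islands without EZHIP cover began 15169 and 17093 bp downstream of the start site, just past the end of the EZHIP peak.

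Lhx9 (chr1:140721763-140745153, minus strand) had no peak over its body and none within 100 kb of its start site in any list. Its nearest peaks were 380, 1883 and 1886 kb away in K27R, K27M and EZHIP. It shared the lack of any K27R cover within 50 kb with 36.0% of all protein-coding genes. Lhx9 did not lack CpG islands, with 3 over its body and 6 within 100 kb. Its start site was not inside one, and the nearest began 1127 bp downstream.

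Lhx3 and Lhx4, which act in the pituitary and in motor neurons, kept wide marks in all 3 lists. Lhx3 (chr2:26055732-26063769, minus strand) lay in peaks of 71.8, 52.2 and 25.4 kb in K27R, K27M and EZHIP, which each covered the whole body. The EZHIP peak ended 31 bp upstream of the start site, while the K27M peak reached 12.2 kb upstream. The margin of 31 bp was less than 1 bin of 200 bp, so Lhx3 entered the EZHIP count of start sites narrowly. After joining at 10 kb the EZHIP peak was 38.6 kb wide. Lhx4 (chr1:157548827-157589157, minus strand) lay in peaks of 74.0, 51.6 and 44.6 kb. The K27M and EZHIP peaks over Lhx4 ended at the same 200 bp bin, 31.2 kb downstream of the start, and each covered 77.3% of the gene. They differed at the upstream edge, with 20.4 kb in K27M and 13.4 kb in EZHIP. K27M and EZHIP peaks covered 72.7% and 51.3% of the Lhx3 region and 69.7% and 60.3% of the Lhx4 region. Both islands of each region overlapped peaks of both lists.

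Lhx6 and Lhx8, which act in interneurons and cholinergic neurons of the forebrain and in the tooth-bearing jaw, lost more length. Lhx6 (chr2:35937470-35960928, minus strand) lay in peaks of 69.8 kb in K27R and 23.8 kb in K27M, and in none in EZHIP, where the nearest peak was 91.5 kb away. The K27M peak held all 6 annotated transcript starts, 8 of 9 exons and all 5 islands of the K27R region. No island of that region overlapped an EZHIP peak. Lhx8 (chr3:153969260-153993615, minus strand) lay in peaks of 80.4, 25.6 and 14.4 kb. Its body was covered to 100%, 64.1% and 31.3%, and its 2 islands overlapped peaks in all 3 lists. The K27M peaks of Lhx6 and Lhx8 thus differed little in width, and the pair differed in the EZHIP list.

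Isl1 and Isl2 are factors of motor and sensory neurons, and Isl1 also acts in heart progenitors and pancreatic islets. In EZHIP only Isl1 kept a peak, as only Lhx8 did in its pair, but Isl1 and Isl2 also differed in K27R and K27M. Isl1 (chr13:117088478-117099896, minus strand) lay in peaks of 85.4, 31.8 and 25.6 kb, which each covered the whole body. Its region held 1 island, over the start site, and K27M and EZHIP peaks covered 37.2% and 30% of the region. Isl2 (chr9:55386479-55393987, plus strand) lay in a K27R peak of 28.0 kb, the narrowest of the 9. A K27M peak of 7.6 kb (chr9:55387601-55395200) began 1.12 kb downstream of the gene's 5′ end, which belongs to a non-coding transcript. It held 3 of the 4 transcript starts, among them the protein-coding start at position 55388955. The peak covered 85.1% of the body and overlapped all 3 islands of the region. In EZHIP no peak lay within 205 kb of the Isl2 start site. With any transcript start or the protein-coding start counted, the K27M count was 9 of 10 and the EZHIP count stayed at 7.

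The genes marked in all 3 lists were nested. For all 7 of them the EZHIP peak lay wholly inside the K27M peak, as it did for 69.9% of the 1476 genes with a start site in a peak of all 3 lists. The K27M peak lay wholly inside the K27R peak for 7 of 8 genes (96.2% of all such genes), and the Lhx1 peak reached 400 bp beyond it. An EZHIP peak narrower than the K27M peak was found for 7 of 7 genes, and for 78.7% of all genes in the 3 lists. The ratio of EZHIP to K27M peak width was 0.306 for Lhx2, 0.427 for Lhx5, 0.432 for Lhx1, 0.487 for Lhx3, 0.562 for Lhx8, 0.805 for Isl1 and 0.864 for Lhx4. Its median of 0.487 was below the 0.705 of all 1476 genes. After joining peaks up to 10 kb apart these medians were 0.805 and 0.830, so that the lower ratio of the LIM homeobox genes rested on how neighbouring peaks were joined. Joining also left 6 of 7 genes with the EZHIP peak narrower and inside the K27M peak, with Lhx5 the exception, and 60.6% of the 1476 genes had the joined EZHIP peak inside the K27M peak.

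Cover within 50 kb did not depend on single peaks in this way. It was longer in K27M than in EZHIP for all 9 genes with any cover, and for 58.7% of the 6628 genes with cover in either list. After joining, the order still held for 9 of 9, although for Lhx1 the values were 62.1 and 61.1 kb, and for 56.0% of the 6628 genes. Over the K27R region 8 of 9 genes had more K27M than EZHIP cover, where 63.1% of 2075 regions did. After joining it was 8 of 9 again, with Lhx1 at 72.2% in K27M and 82.7% in EZHIP.

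**Figure D3:**
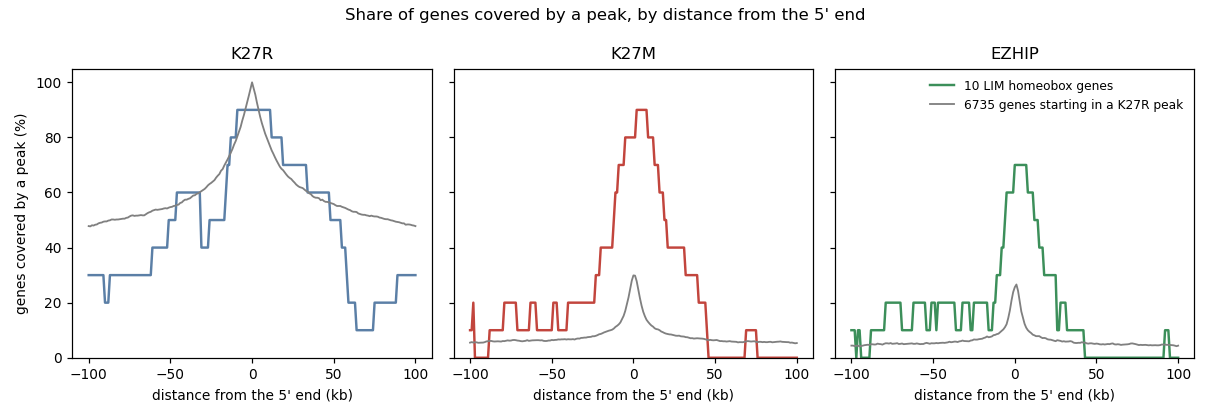
Percent of genes covered by a peak at each distance in kb from the 5′ end, with the 10 LIM homeobox genes in colour (1 gene is a step of 10%) and the 6735 genes starting in a K27R peak in grey, for the K27R, K27M and EZHIP lists. At 10 kb downstream 8 of the 10 genes lay in a K27M peak and 6 in an EZHIP peak, against 12.3% and 8.98% of the grey set.

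The peaks over the start sites were wide beside those of other genes. Their median width was 80.4, 51.9 and 25.6 kb for the LIM homeobox genes, against 53.6, 10.0 and 8 kb for all peaks that held a protein-coding start. After joining at 10 kb these medians were 80.4, 51.9 and 38.6 kb against 57.0, 10.6 and 9 kb. The narrowest was 23.8 kb in K27M and 14.4 kb in EZHIP, and 22.2% and 23.7% of all such peaks were at least as wide. The K27M peak of 7.6 kb over the coding start of Isl2, which missed the gene's 5′ end, is not in these values. It was narrower than the median of 10.0 kb. K27M peaks reached a median of 16.3 kb upstream and 25.8 kb downstream, and EZHIP peaks 8.30 and 17.3 kb. The downstream reach was longer in 7 of 8 K27M peaks (60.6% of all genes in the list) and in 6 of 7 EZHIP peaks (63.0%). After joining the counts were 7 of 8 and 5 of 7 (60.0% and 60.1% of all genes). Lhx1 was the exception in both unjoined lists, with 88.3 kb upstream and 12.1 kb downstream in K27M.

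How much of each K27R region remained was set beside all 3623 K27R regions with a protein-coding start. The 9 regions summed to 1209.6 kb, of which K27M peaks covered 648.2 kb or 53.6% and EZHIP peaks 502.4 kb or 41.5%. Over all 3623 regions the shares were 12.9% and 9.10%. After joining the shares were 57.1% and 48.8% for the 9 regions, and 13.8% and 10.6% for all. K27M peaks were found in 9 of 9 regions and EZHIP peaks in 7, where 49.2% and 48.9% of all regions held one. Among the 1782 regions with an island and a width of 28.0 to 351.6 kb, limits taken from the 9 regions after their values were seen, 71.0% held a K27M peak and 71.8% an EZHIP peak. Where a peak remained, it covered a median of 13.6% and 11% of those regions. In the LIM homeobox regions the medians were 49.9% for the 9 with a K27M peak and 41.7% for the 7 with an EZHIP peak. The 1782 regions were not matched for the number of islands. Its median was 3 in the 9 regions and 1 over all 3623 regions.

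**Figure D4:**
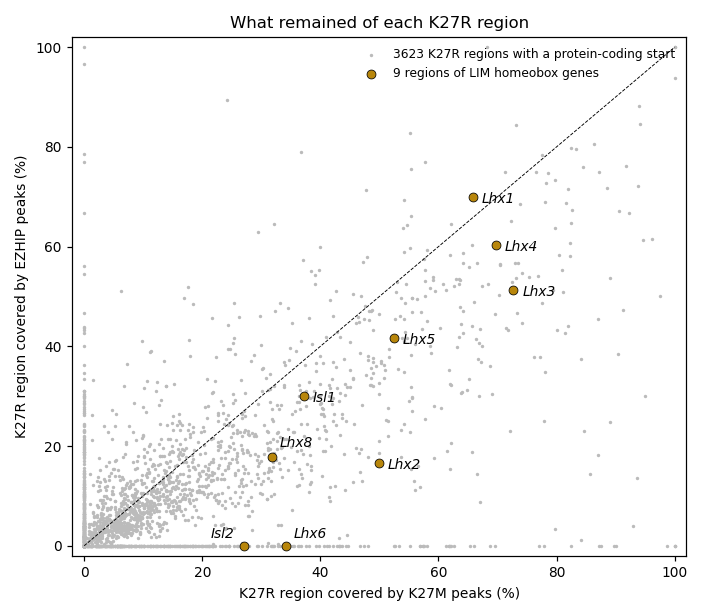
Percent of each K27R region covered by K27M peaks (x axis) and by EZHIP peaks (y axis), for 3623 regions with a protein-coding start (grey points) and the 9 regions of the LIM homeobox genes (ochre points). The dashed line marks equal cover; Lhx1 sits just above it, Isl2 and Lhx6 lie on the x axis at 27.1% and 34.1%, and the other 6 lie below the line.

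CpG islands were many in these genes, and most of them stayed covered. The gene body overlapped at least 2 islands for 9 of the 10 genes (90.0%), where 13.6% of all genes and 17.9% of genes marked in K27R had as many, and Isl1 had 1. All 34 islands in the 9 K27R regions overlapped a K27M peak, where 49.5% of the 5852 islands in all regions did. EZHIP peaks overlapped 23 of the 34 or 67.6%, where 42.1% of all did. Of the 11 islands without EZHIP cover, 8 lay in the regions of Lhx6 and Isl2, 2 in that of Lhx2 and 1 in that of Lhx1. This last island began 11634 bp downstream of the Lhx1 start site, past the 3′ end of the gene, and crossed the edge of the region. It held the start site of the neighbouring gene Aatf. The start site of the protein-coding transcript lay in an island for 70.0% of the 10 genes, 46.4% of all genes and 35.7% of genes marked in K27R.

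A list of 12 genes held Lmx1a and Lmx1b, which are LIM homeobox genes too, and genes that work with LIM homeodomain proteins. Of these, 5 (41.7%) had a start site in a K27R peak, 4 (33.3%) in K27M and 4 (33.3%) in EZHIP, where 30.1%, 9.02% and 7.73% of all genes did. The 5 in K27R were Lmx1a and Lmx1b and, of the partners, Lmo1, Lmo2 and Rlim. The shares are thus not those of the partner genes alone. Lmx1a, which acts in dopamine neurons and the roof plate, lay in peaks of 425.4, 19 and 12.4 kb. Lmx1b, which patterns the dorsal limb, lay in a K27R peak of 18.2 kb, in no K27M peak within 96.2 kb and in an EZHIP peak of 20.6 kb that ran 3000 bp past the K27R edge. Lmx1b was the only gene of the 22 LIM genes and partners with EZHIP but no K27M cover at the start site. The LIM-only genes Lmo1 and Lmo2, which lack a homeodomain, had K27M and EZHIP peaks of nearly equal width, 9.6 and 10.0 kb for Lmo1 and 40.6 and 43.4 kb for Lmo2. Rlim, an X-linked ubiquitin ligase that acts on LIM cofactors, lay in peaks of 1395.4 kb in K27R and 422.6 kb in K27M and in none in EZHIP. Its K27R peak was far wider than the widest over the 10 genes, 351.6 kb, none of which lies on the X chromosome. The cofactors Ldb1 and Ldb2, through which LIM domains join into complexes, their partners Ssbp2, Ssbp3 and Ssbp4, and Lmo3 and Lmo4 had no start site in a peak of any list.

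Other families of developmental transcription factors had similar counts. Start sites lay in K27R, K27M and EZHIP peaks for 8, 8 and 6 of 9 Pax genes and for 9, 9 and 8 of 10 Nkx2 and Nkx6 genes. The LIM homeobox counts of 9, 8 and 7 of 10 were thus not particular to that family. Wide peaks were found in the other families too. K27M start-site peaks ran from 8.8 kb (Pax1) to 319.0 kb (Pax2), and from 6.0 kb (Nkx6-3) to 63.0 kb (Nkx2-3). EZHIP start-site peaks ran from 10.0 kb (Pax4) to 153.4 kb (Pax2), and from 6.0 kb (Nkx2-6) to 58.6 kb (Nkx2-3). For the LIM homeobox genes the ranges were 23.8 to 100.4 kb in K27M and 14.4 to 44.6 kb in EZHIP. They leave out the K27M peak of 7.6 kb over the coding start of Isl2, which missed the gene's 5′ end. The genes whose 3 peak widths came nearest to the medians of the 7 LIM homeobox genes in all lists (85.4, 52.2 and 25.6 kb) were sought among 1469 others by the distance of log2 widths. They were Foxa1 (90.4, 41.6 and 27 kb, distance 0.35), Nkx3-2 (72.0, 53.4 and 32.2 kb, 0.41) and Egr4 (119.6, 48.0 and 24.6 kb, 0.50). All of these encode transcription factors, but the share of such genes among the 1469 was not counted.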

How the data were processed

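Per the labels, chromatin of crosslinked MEFs was digested with MNase to mononucleosomes and immunoprecipitated for H3K27me3. The authors aligned reads with Bowtie 1.0.0 to mm9 and to a reference genome for scaling, and called broad peaks with MOSAiCS-HMM with a stated maximum gap of 10 kb, so that each of the 3 deposited lists holds 1 library's peak positions in a grid of 200 bp bins. All 3 lists held gaps under 10 kb, and their smallest gaps differed, so 1 such setting does not describe them. Library depth is not given by the files. Groups came from the sample titles. Start sites were the 5′ ends of 22350 protein-coding genes (GENCODE vM1, mm9), and any overlap counted from 1 bp. CpG islands were found by scoring 17 for CG and -1 otherwise, over 200 bp, 50% or more G+C, ratio of observed to expected CG above 0.6 (26796 islands). Promoter sequence was read from mm9. Interval and island steps, written in Python 3.11.15 with numpy 2.4.6, were tested on simulated data. No statistical test was run, since each group was 1 library.

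The genes and all lists were chosen with earlier results of these data known. Named genes were the 10 genes, the LIM partner list, other coding starts in the same K27R peaks and the 3 most alike in peak width. Of 8 markers of other cell types, Map2 was not matched. Alternatives were other start sites, windows of 25 and 100 kb, minimum widths of 2 and 5 kb, at least 50% of the body covered, bodies extended by 5 kb, the longest coding transcript and joining at 10 kb. The gap counts and the region, width and reach values after joining were added after the data were seen. So were the coding start, the joined comparison of widths and the peak widths of the Pax and Nkx genes.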

Additional observations from a re-analysis of the deposited data

How the results depend on the processing

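Across 14 results, 57 of 59 alternatives moved the value by no more than 1.5 times. For medians they also kept it within a 95% interval over the 10 genes, which was 28.0 to 96.4 kb for K27R cover. Such an interval is not the full range of the genes, 0 to 100 kb here, and measures no spread between replicates. Its genes were chosen by name and are not a random sample. For EZHIP it ran from 0 to 56.5 kb for cover and from 0 to 100% for the gene body, which no share could leave. The exceptions were both for the median K27R cover, which was 41.0 kb with a window of 25 kb on either side and 108 kb with 100 kb, against 78.1 kb with 50 kb, as a window limits the length that can be covered. Counts that moved within that limit were the EZHIP gene bodies, 5 of 10 when at least 50% had to be covered, the K27M start sites, 9 of 10 with any transcript start, and the narrower EZHIP peaks, 6 of 7 after joining. Many of the alternatives could not have moved their result, so the tally says little about stability. No peak over a start site or body of the 10 genes was narrower than 7.6 kb. Minimum widths of 2 and 5 kb thus could not change those counts. Joining peaks, extending bodies and counting any transcript start could only raise them. No paired analysis was possible because each group held 1 library. The lists hold no heights, so that a signal under the caller's threshold cannot be told apart from no signal, which bears on Lhx6 and Isl2 in EZHIP.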

Other observations

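The start site of Aatf, named after its values were seen, lay 177 bp outside the K27R region of Lhx1 and inside the Lhx1 K27M peak, which passed the K27R edge by 400 bp. At the far edge of the same region, the annotated 3′ end of Mrm1 lay 363 bp beyond it, so that the region filled the space between these genes.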
